A study of Arabidopsis thaliana with 6 samples.

Results

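Genes of the plant lipid transfer protein family were followed here in Arabidopsis seedlings mutated in both genes of the plastidial glycolytic enzyme GAPCp. The members described are the 6 probe sets, of 22746 measured and of 274 in the authors' deposited table, whose locus in that table is AT5G46900, AT3G22570, AT4G12510, AT4G12550 (AIR1), AT1G62510 or AT5G48490. The authors' deposited table describes each of them as a protease inhibitor, seed storage or lipid transfer protein family member, and no other of its 274 probe sets carries that description. AT5G46900 and AT4G12510 were read on shared probe sets (suffix _s_at), which match more than a single transcript, so their values may include near-identical relatives. The other 4 were read on probe sets of a single locus. 

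The groups were 3 arrays of the double mutant gapcp1gapcp2 and 3 arrays of wild type, both in the Col-0 ecotype. Each array measured total RNA of whole seedlings aged 15 days that had grown vertically on dilute MS medium with Gamborg vitamins under long days at the same time. No label gives the mutant alleles or says whether the line is a single isolate. The labels call the samples biological replicates and number them 1 to 3 in each genotype. The question addressed is how the seedling transcriptome differs when both genes for the plastidial glyceraldehyde-3-phosphate dehydrogenase are mutated.

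Lipid transfer proteins are small secreted proteins with a conserved pattern of cysteines, whose disulphide bonds hold a bundle of helices around a cavity that can bind a lipid. They act outside the cell, in the wall and at the plasma membrane, and the family is known for roles in cuticle and suberin formation, in cell wall properties and in defence signalling. A branch of it, to which AIR1 is related, carries this cysteine domain at the C-terminal end of a proline-rich or glycine-rich stretch. Many genes of that branch lie in tandem clusters. AIR1 takes its name from its discovery as a transcript induced by auxin in root cultures.

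Of the 6 probe sets, 5 were dimmer in gapcp1gapcp2 and 1, AT5G48490, was brighter. The mean intensity was between 2.51-fold and 5.05-fold lower in the mutant for the 5, and 2.19-fold higher for AT5G48490. For each of the 6, the highest array of the dimmer genotype lay below the lowest array of the brighter one. The same holds for 32.2% of all probe sets on the array, with 16.6% lower and 15.5% higher in the mutant. All 6 also passed limma at an adjusted p under 0.05, beside 11.0% of all probe sets (5.13% lower and 5.86% higher in the mutant). The members were chosen by their fold change, difference of means and p-value between these genotypes, since the authors had filtered the table on these values. The counts follow from that choice and nothing is read from them, and the changes below are given as a description with no test.

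AIR1 (AT4G12550, on chromosome 4) had intensities of 237, 212 and 212 in gapcp1gapcp2 replicates 1 to 3, against 645, 661 and 685 in wild-type replicates 1 to 3. The 3 mutant arrays lay close together and far below every wild-type array. The mean was 220 ± 14.7 in the mutant and 664 ± 20.1 in wild type (SD, n = 3 each), a 3.01-fold lower intensity. On the log2(intensity + 16) scale, where 16 is added to steady dim values, this was a change of -1.53 ± 0.07 (SE). Since whole seedlings were measured, fewer cells of a type that holds the transcript and less of it per cell cannot be told apart, here and for the genes that follow.

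AT4G12510 lies 6 genes from AIR1 in the same cluster on chromosome 4. The RefSeq gene order of TAIR10.1 places AT4G12520, AT4G12530 and AT4G12545 between them, and EARLI1, a relative first found as an aluminium-induced transcript, a few genes to the other side. The shared probe set of AT4G12510 read 447, 439 and 434 in the mutant replicates, against 1300, 1258 and 1414 in the wild-type replicates. The mutant arrays were nearly equal, with a coefficient of variation of 1.52%, and all 3 were below the lowest wild-type array. The mean was 440 ± 6.70 in gapcp1gapcp2 and 1324 ± 80.8 in wild type (SD, n = 3 each), with a log2 change of -1.55 ± 0.07 (SE). The changes of AT4G12510 and AIR1 differed by -0.03 on the log2 scale with an SE of 0.05, so this pair could not be separated.

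AT5G46900, on chromosome 5, had the lowest log2 change of the 6. Its shared probe set read 220.0, 269.9 and 271 in gapcp1gapcp2, against 1256, 1306 and 1282 in wild type. The brightest mutant array was 4.63-fold below the dimmest wild-type array. The mean was 254 ± 29.2 in the mutant and 1282 ± 24.9 in wild type (SD, n = 3 each), a 5.05-fold lower intensity and a log2 change of -2.27 ± 0.10 (SE). Only 6 of the 22746 probe sets had a lower log2 change on these arrays. The next gene on the chromosome is AT5G46890, of the same family, and whether the shared probe set also reads it is not given in the sources used here.

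AT3G22570 lies on chromosome 3. It read 66.7, 72.0 and 73.8 in the mutant, against 247, 244 and 244 in wild type. The wild-type arrays were nearly equal, with a coefficient of variation of 0.736%, and the mutant arrays were well below them. The mean was 70.8 ± 3.70 in gapcp1gapcp2 and 245 ± 1.80 in wild type (SD, n = 3 each), a 3.46-fold lower intensity. Its log2 change was -1.59 ± 0.06 (SE). At mutant intensities this low the added 16 weighs on the change, which was -1.78 with 1 added in place of 16 and -1.20 with 64 added.

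AT1G62510, on chromosome 1, read 260, 301 and 305 in the mutant, against 642, 730 and 806 in wild type. It had the widest spread among wild-type arrays of the 6, with a coefficient of variation of 11.3%, and its mutant arrays were still all below its wild-type arrays. The mean was 289 ± 25.1 in gapcp1gapcp2 and 726 ± 82.2 in wild type (SD, n = 3 each), with a log2 change of -1.28 ± 0.11 (SE). Its neighbour on the chromosome, AT1G62500, is known as a marker of the root cortex. That neighbour is not among the probe sets that could be named, so its value is not given.

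AT5G48490, on chromosome 5, went the other way. It is a close relative and direct neighbour of DIR1, which encodes a lipid transfer protein needed for the long-distance signal of systemic acquired resistance, and it is known itself as DIR1-like. It read 1275, 1513 and 1427 in gapcp1gapcp2, against 664, 633 and 628 in wild type. Each mutant array was at least 1.92-fold above every wild-type array. The mean was 1405 ± 120.5 in the mutant and 642 ± 19.5 in wild type (SD, n = 3 each), with a log2 change of 1.11 ± 0.08 (SE). DIR1 itself has no probe set that could be named.

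**Figure D1:**
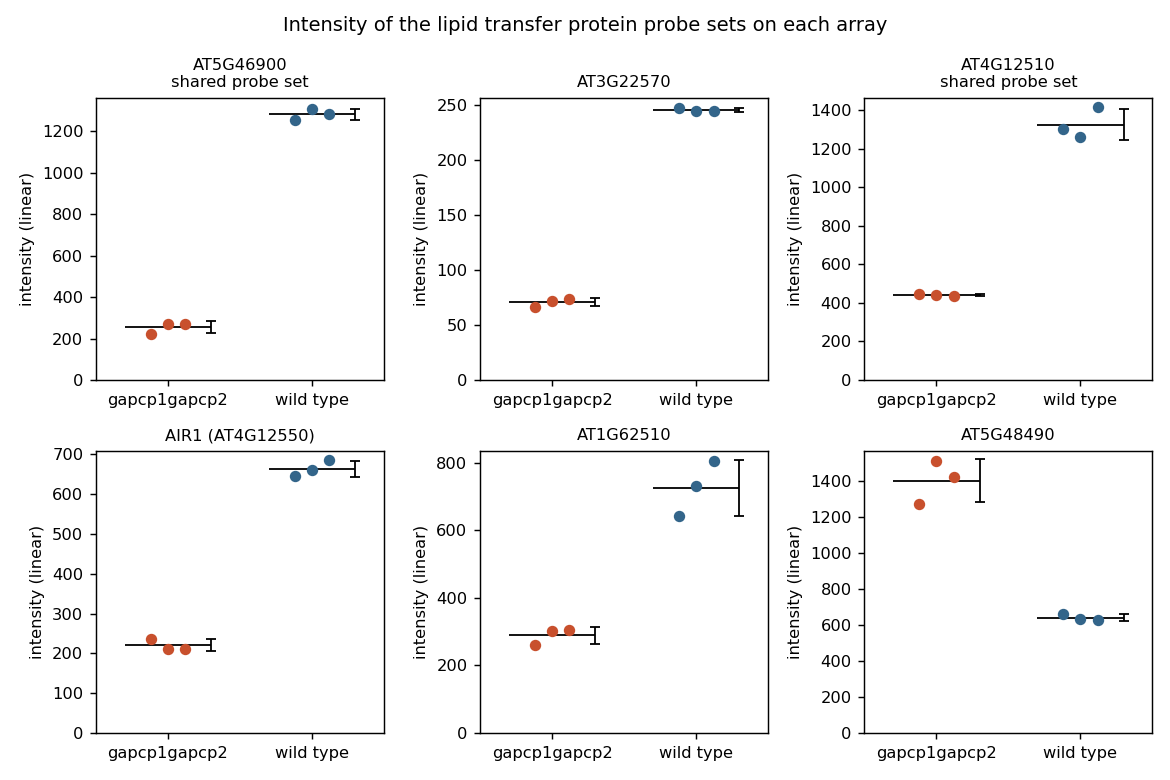
Intensity on a linear axis that starts at 0, for each of the 6 probe sets and each array, with gapcp1gapcp2 on the left of each panel and wild type on the right. Points are arrays (replicates 1 to 3 from left to right), horizontal lines are means and bars are SD (n = 3). The mutant points lie below the wild-type points in 5 panels and above them for AT5G48490, for which they range from 1275 to 1513 against 628 to 664 in wild type.

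In order of log2 change, AT5G46900 was set apart from the rest and the next members were close together. The change of AT5G46900 was lower than that of AT3G22570 by 0.68 on the log2 scale (difference -0.68, SE 0.06). AT3G22570, AT4G12510 and AIR1 followed within 0.06 of each other. The difference of -0.04 between AT3G22570 and AT4G12510 was smaller than its SE of 0.07. In the same order, the changes were -1.78, -1.59 and -1.59 with 1 added, and -1.20, -1.46 and -1.36 with 64 added. How close AT3G22570 lay to AT4G12510 and AIR1 therefore depended on the amount added. AIR1 and AT1G62510 differed by -0.25 with an SE of 0.14. AT1G62510 was slightly farther from AT3G22570 and AT4G12510, which differed from it by -0.31 (SE 0.10) and -0.27 (SE 0.11). Each SE rests on 3 arrays per genotype, and these differences are a description that was not tested. The order of AT3G22570, AT4G12510 and AIR1 turned under 4 of 14 other processing settings. AT5G46900 stayed lowest and AT1G62510 the least reduced of the 5 under all 14. Subtracting each array's median, the filter on dim probe sets, the replicate block and trend and robust moderation could not change the order.

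Set beside the other probe sets, the median log2 change of the 6 members was -1.54, and that of all 22746 probe sets was -0.02. The authors' deposited table holds 168 probe sets that were higher and 106 that were lower in the mutant here, and the median log2 change of its 106 lower ones was -1.34, against -1.55 for the 5 lower lipid transfer proteins. By the header of the authors' deposited comparison, the table required a fold over 2, a difference of means over 100 and a p of at most 0.05. Whether the table rests on exactly the 6 arrays used here is not given. Closest to its fold limit was AT5G48490, with a fold of 2.2 and bounds of 1.95 and 2.47 in the authors' deposited table. Closest to its difference limit was AT3G22570, with a difference of -173.9 in the authors' deposited table. Outside the table, 20 probe sets had a ratio of means over 2 and a difference over 100 on the arrays used here. Of the probe sets outside it with a difference over 100 and a ratio under 2, the highest ratio was 1.99. None of these can be named.

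The 6 arrays also show how the members varied among samples of the same genotype. The authors' filter on p favours probe sets with a small spread within a genotype, so the size of these deviations is not independent of the choice, and they are given as a description. Mutant replicate 1 was the array farthest from the other mutant arrays for all 6 probe sets. Over all 22746 probe sets it was the farthest for 50.3%, and over the brighter of them, with a mutant mean at or above the median of all probe sets, for 57.3%. On that array AT5G46900, AT3G22570, AT1G62510 and AT5G48490 were at their lowest among the mutant arrays, and AT4G12510 and AIR1 were at their highest.

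On mutant replicate 1, AIR1 thus deviated on the opposite side from AT5G46900, AT3G22570, AT1G62510 and AT5G48490. In log2 units AIR1 deviated by 0.10 from its mutant mean there, and AT5G46900 deviated by -0.19 and AT5G48490 by -0.14. AT4G12510 lay on the side of AIR1 by 0.02 only, about the size of its -0.02 on mutant replicate 3. Across the 6 arrays the deviations of AT5G46900 and AT3G22570 from their genotype means had a Pearson r of 0.93, and those of AIR1 and AT5G48490 an r of -0.93. Each of these 4 had its largest deviation on mutant replicate 1, so that array weighs most in both r values. AT4G12510 did not share the strong opposite pattern of AIR1, with an r of 0.52 with AIR1, -0.26 with AT5G46900, -0.27 with AT3G22570, -0.28 with AT5G48490 and 0.36 with AT1G62510. Such correlations rest on 3 arrays per genotype, shared by all members, and are given as a description. These deviations were small beside the difference between genotypes. Without mutant replicate 1 the log2 changes were -2.18 for AT5G46900, -1.56 for AT3G22570, -1.57 for AT4G12510, -1.58 for AIR1, -1.21 for AT1G62510 and 1.18 for AT5G48490.

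**Figure D2:**
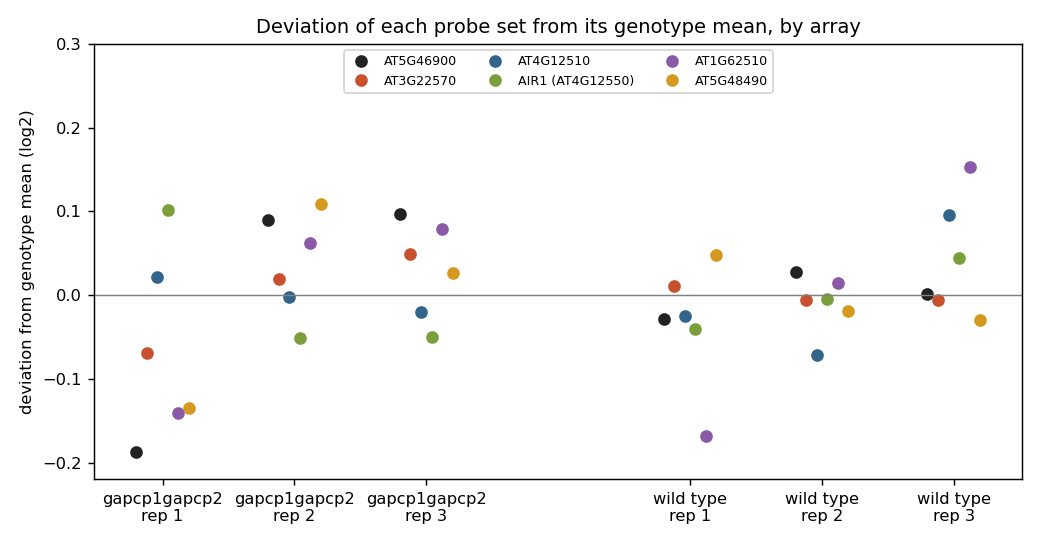
Deviation of each of the 6 probe sets from the mean of its own genotype, in log2 units on the vertical axis, for each array on the horizontal axis (gapcp1gapcp2 replicates 1 to 3 on the left, wild-type replicates 1 to 3 on the right). Each colour is a locus. On mutant replicate 1, AIR1 (0.10) and AT4G12510 (0.02) lie above 0 and the other 4 below it, down to -0.19 for AT5G46900.

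The rest of the family could not be followed by name. A list of 92 loci for lipid transfer proteins and related proteins, which was compiled by hand and not checked against a family annotation, holds the 6 members. None of its other 86 loci is in the authors' deposited table, which is the only source here that pairs a probe set with a gene, so their values are unknown here. They include DIR1, AZI1, EARLI1, LTP1, LTP2, LTP3, LTP4, the membrane-anchored LTPG1 and LTPG2, which act in cuticular wax export, and the cluster neighbours of AIR1. Likewise, none of 25 genes of cutin, suberin and wax formation could be named. In all, 2227 probe sets outside the table passed limma and remain without a name.

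Genes of the processes for which AIR1 and AT5G48490 are known were described from lists of 24 and 18 loci. Besides AIR1, the auxin and lateral root list had 1 gene that could be named, XTH19, which encodes a xyloglucan-modifying enzyme of the cell wall. XTH19 read 353, 431 and 391 in gapcp1gapcp2, against 173, 152 and 210.4 in wild type, a log2 change of 1.07 ± 0.13 (SE). XTH19 was higher on every mutant array than on any wild-type array, the opposite direction to AIR1. Of all probe sets, 15.5% were likewise higher on every mutant array, and 5.86% passed limma as higher. XTH19 comes from the authors' filtered table, in which 168 of 274 probe sets were higher here. The values of the other 22 entries of the list are unknown here.

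Besides AT5G48490, the list for systemic acquired resistance had 3 genes that could be named, and all 3 were higher in the mutant. In the authors' filtered table, from which they come, 168 of 274 probe sets were higher here. Of all probe sets, 5.86% passed limma as higher. BGL2, a pathogenesis-related glucanase, read 378, 406 and 379 in gapcp1gapcp2, against 45.0, 46.5 and 65.8 in wild type (log2 change 2.57 ± 0.13 SE, and 1.96 with 64 added in place of 16). PR5, a thaumatin-like pathogenesis-related protein, averaged 328 ± 15.9 in the mutant and 143 ± 17.7 in wild type, and the transcription factor gene WRKY54 averaged 265 ± 9.39 in the mutant and 125 ± 13.9 in wild type (SD, n = 3 each). The other 14 entries of this list have no named probe set. All of these genes come from the same filtered table as the members, so that they pass or share a direction says nothing of their lists.

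Of 18 root markers in the list, 3 could be named, and all 3 were lower on the same mutant arrays as the 5 dimmer lipid transfer proteins. The 3 come from the authors' filtered table, in which 106 of 274 probe sets were lower here, beside 5.13% of all probe sets that passed limma as lower, and the values of the other 15 markers are unknown here. CASP1, which encodes a scaffold protein of the Casparian strip in the endodermis, read 263, 273 and 233 in gapcp1gapcp2, against 714, 769 and 777 in wild type (log2 change -1.50 ± 0.08 SE). ESB1, a dirigent-domain protein of the same strip, and TIP2;3, a tonoplast channel of the root, had log2 changes of -1.29 ± 0.07 and -1.57 ± 0.08 (SE).

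The summed intensity of the 3 root markers was between 514 and 567 on the mutant arrays and between 1547 and 1568 on the wild-type arrays, and none was at 0. All 3 were selected for a difference between the genotypes, so that their sums lie apart was given by that choice. None of the 8 shoot markers could be named, so the shares of root and shoot in the samples could not be compared. The part that root markers or tissue shares play in the lower lipid transfer protein values was not tested.

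**Figure D3:**
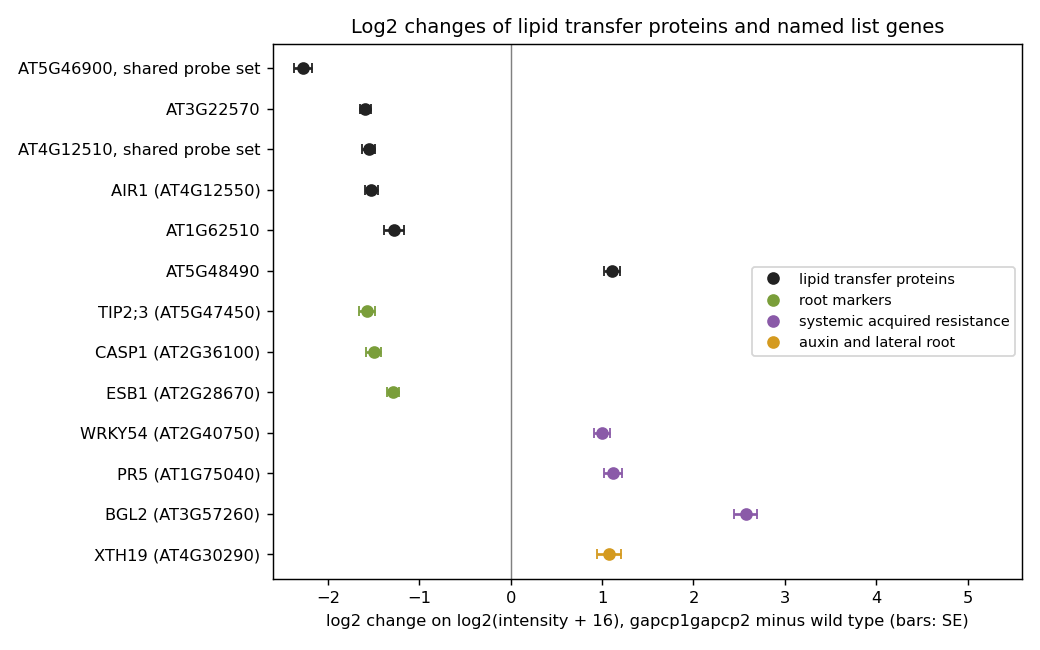
Log2 change on the log2(intensity + 16) scale (horizontal axis, gapcp1gapcp2 minus wild type) with its SE for the 6 lipid transfer proteins and for the 7 genes of the root marker, systemic acquired resistance and auxin lists that could be named, 1 gene per row. The 5 dimmer lipid transfer proteins lie between -2.27 and -1.28 and the 3 root markers between -1.57 and -1.29, while AT5G48490 (1.11) lies on the side of PR5 (1.12), WRKY54 (1.00), BGL2 (2.57) and XTH19 (1.07).

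For each of the 4 members with a probe set of their own, the genes with the most similar pattern over the 6 arrays were looked up among 252 other table probe sets of a single locus, by Pearson r of their log2 values. Every candidate was selected for a difference between the genotypes, so a high r is given by that choice, and r serves only to order them. AIR1 was most like AT3G29410, of the terpene synthase family, and MEE3, a MYB family gene, with an r of 0.998 for each. AT3G22570 was most like AT3G25190, described as a putative nodulin, and AT1G52820, of the 2-oxoglutarate-dependent dioxygenases, with an r of 0.999 for each.

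The pattern of AT1G62510 was closest to those of VSR7, a putative vacuolar sorting receptor gene, and PIP2;4, an aquaporin gene, with an r of 0.998 and 0.996. VSR7 averaged 128 ± 5.02 in gapcp1gapcp2 and 266 ± 22.2 in wild type, and PIP2;4 averaged 76.5 ± 13.2 in gapcp1gapcp2 and 229 ± 24.5 in wild type (SD, n = 3 each). AT5G48490 was most like AT5G03350, a legume lectin family gene, and PR-1-LIKE, a pathogenesis-related protein 1 family gene, with an r of 0.999 for each. AT5G03350 averaged 1026 ± 76.3 in gapcp1gapcp2 and 436 ± 24.6 in wild type, and PR-1-LIKE averaged 173 ± 11.6 in gapcp1gapcp2 and 73.4 ± 1.48 in wild type (SD, n = 3 each).

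By deviations from the genotype means alone, the most similar genes were others. For each member they were the 2 highest of 252 candidates over 6 arrays, so a high r follows in part from the picking. Mutant replicate 1, the farthest mutant array for 50.3% of all probe sets, also weighs on these r values. Here too, r serves only to order the genes. They were ACS6, an ethylene synthesis gene, and PPDK (r = 0.995 and 0.991) for AT3G22570, and AT1G43910 and AT3G12320 (r = 0.87 and 0.74) for AIR1. For AT1G62510 they were HMT-1 and AT2G34810 (r = 0.988 and 0.969), and for AT5G48490 they were ABCG19 and CYP96A4 (r = 0.996 and 0.958). For AT3G22570, AIR1 and AT1G62510, which were dimmer in the mutant, these genes were all brighter in it, with log2 changes of 1.00 (ACS6), 1.14 (PPDK), 1.66 (AT1G43910), 1.19 (AT3G12320), 1.08 (HMT-1) and 1.45 (AT2G34810). The 2 measures therefore named different genes for each of the 4 members.

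**Figure D4:**
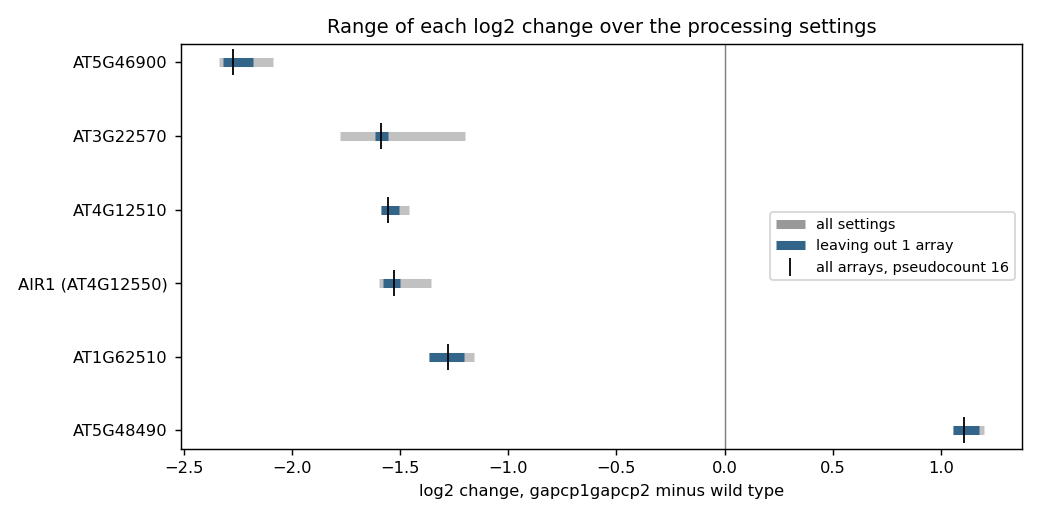
Log2 change of each of the 6 probe sets (horizontal axis, gapcp1gapcp2 minus wild type), with the value on all arrays at a pseudocount of 16 as a black mark, the range over leaving out 1 array in turn in blue and the range over all settings in grey. Each range stays on its own side of 0, and the widest is that of AT3G22570, from -1.78 to -1.20.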

How the data were processed

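Total RNA of 6 seedling samples was labelled with biotin and hybridised to 1-colour Affymetrix arrays. The authors deposited intensity values per probe set on a linear scale, with 1.85% of them below 0 and array medians between 110.7 and 117. GCOS is named in the submitters' processing notes. Its version and the scaling were not given in the sources used here. The authors also deposited group mean intensity, a signed fold change score with bounds, and a p-value for 274 filtered probe sets. Their group means for the 6 members were at most 1.004% off those computed here.

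The analysis used log2(intensity + 16), with negative intensities raised to 0 first, and no array was rescaled. limma 3.58.1 (lmFit and eBayes, R 4.3.3, two-sided, no block) was fitted to all 22746 probe sets with Benjamini-Hochberg adjustment, and was tested on simulated data. It gave the SE of each log2 change and the shares passing at 0.05. Array number limits the precision. The SE of a difference between members came from the per-array log2 differences of the pair. Groups came from the sample titles. The description fields speak of embryo stages, which goes against the tissue label, and were not used.

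Members and gene lists were chosen with earlier results of these data known. Genes were named if they were members, list genes or chromosome neighbours within 5 genes with a probe set of a single locus in the authors' deposited table, or the 2 most similar by r. Gene order and symbols are from RefSeq's TAIR10.1 table, which held all 6 loci. GAPCP1 and GAPCP2 have no named probe set, so the genotype labels could not be checked. Protein and promoter sequences were not used here. Python 3.11.15 with numpy 2.4.6, pandas 2.3.3 and matplotlib 3.10.9 was used. The alternatives were 2 normalisations, 2 pseudocounts, a filter on dim probe sets, trend and robust moderation, a 2-fold minimum, a replicate block and leaving out arrays.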

Additional observations from a re-analysis of the deposited data

How the results depend on the processing

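Of 84 alternative log2 changes of the 6 lipid transfer proteins over 14 settings, 0 reversed and 78 moved by less than the spread between replicates. The dim filter, the replicate block and trend and robust moderation cannot change these values, so their part of the 78 was fixed in advance. The members were also chosen with a fold over 2 between these genotypes, so the 0 was close to given by that choice. The 6 that moved more came from a pseudocount of 64 (4), a pseudocount of 1 (1) and leaving out both arrays numbered 1 (1), a setting chosen after the data were seen. The median log2 change of the members was -1.59 at a pseudocount of 1 and -1.28 at a pseudocount of 64, by construction. Leave-one-out values were -2.32 to -2.18 for AT5G46900, -1.62 to -1.56 for AT3G22570, -1.59 to -1.51 for AT4G12510, -1.58 to -1.50 for AIR1, -1.36 to -1.20 for AT1G62510 and 1.05 to 1.18 for AT5G48490.

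Over all probe sets 2501 passed limma (1334 higher and 1167 lower in gapcp1gapcp2). With a 2-fold minimum, which can only remove calls, the total was 390, of which 222 were higher and 168 lower. Without both arrays that carry the number 1 it was 1504, of which 871 were higher and 633 lower, and here fewer arrays were tested. Dropping single arrays in turn left between 1190 and 2347 calls (620 to 1362 higher, 560 to 985 lower). The total fell to 1190 with mutant replicate 2 dropped, to 1197 with mutant replicate 3 dropped and to 1422 with wild-type replicate 2 dropped. The replicate block gave 1687 calls (910 higher, 777 lower), with the cause not tested. It cannot change the members' log2 changes, since each number occurs once in each genotype. Same-numbered arrays showed a correlation of their deviations of 0.234 (number 1), 0.0186 (number 2) and 0.0174 (number 3), which does not establish pairs. Signal close to background, which these files do not mark, limits the folds of dim probe sets, and among the 6 members the log2 change of AT3G22570 moved most with the pseudocount.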

Other observations

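Among 55 different genes within 5 places of a member on its chromosome, 2 could be named. Both were higher in the mutant, while the member near each was lower. In the authors' filtered table, from which the 2 come, 168 of 274 probe sets were higher here. Of all probe sets, 5.86% passed limma as higher. FMO GS-OX2 (AT1G62540), a flavin monooxygenase gene that acts on glucosinolate side chains, lies 4 genes from AT1G62510. It read 167, 211 and 179 in gapcp1gapcp2, against 41.1, 48.9 and 70.1 in wild type, a log2 change of 1.55 ± 0.17 (SE). AT3G22550, described in the authors' deposited table as related to senescence-associated proteins, lies 4 genes from AT3G22570 and averaged 382 ± 10.4 in gapcp1gapcp2 and 166 ± 5.27 in wild type (SD, n = 3 each, log2 change 1.13 ± 0.06 SE). Since both were selected in that table, their changes and their direction are a description, and the values of the other 53 neighbours are unknown here.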
